A study of Mus musculus with 2 samples.

Results

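The transcripts described here are 10 feedback inhibitors of ERK signalling, Spry1, Spry2, Spry4, Spred1, Spred2, Spred3, Dusp4, Dusp5, Dusp6 and Il17rd. They were chosen by name as known inhibitors of this pathway, and their members are all gene probes that carry these names, 12 probes for 10 of the 30011 genes named on the array. Ureters were taken from NMRI mouse embryos at E15.5 and kept in transwell culture for 6 days before total RNA was extracted. Mutant ureters (Fgfr1/2cDKO) carried Tbx18(cre/+) together with homozygous floxed alleles of both receptor genes, Fgfr1(fl/fl) and Fgfr2(fl/fl). Control ureters carried Fgfr1(fl/?) and Fgfr2(fl/?), with the second allele of each unstated and no Cre allele listed. Cre from the Tbx18 locus acts in the mesenchyme around the ureteric epithelium and in its descendants, so the epithelium keeps its receptors, and receptor loss cannot be told apart from the presence of the Cre allele.

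Each of 2 two-colour Agilent arrays held 1 mutant and 1 control RNA. On array 1, with the label male, Cy5 marked the mutant RNA, and on array 2, with the label female, Cy3 did, so replicate, sex label and dye cannot be told apart. Of the gene spots, 70.3% to 78.3% were well above background in each of the 4 RNA samples. Precision is limited by the number of arrays. The labels do not say whether the samples came from separate litters or how many embryos were pooled, so p-values cover only how far these samples spread, and that spread may be technical. The test also weighs a gene's own spread with that of all genes tested. The SD printed beside a p-value is therefore not its main basis.

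FGF receptors are tyrosine kinases that, once bound by ligand, activate RAS and then the kinases RAF, MEK and ERK in turn. Active ERK raises the transcription of its own inhibitors, and these transcripts are widely used as readouts of FGF signalling in embryonic tissue. Sprouty proteins act between the receptor and RAF. Spred proteins bring neurofibromin, which switches RAS off, to the membrane. Dusp4, Dusp5 and Dusp6 remove phosphate from MAP kinases, Dusp6 in the cytoplasm and the other two in the nucleus. Il17rd, also called Sef, is a membrane protein that binds FGF receptors and holds back ERK signalling. In the urinary tract, Spry1 is known for restraining the response of the ureteric bud to GDNF.

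Promoter sequences show where known regulators of such genes could bind. RefSeq start sites (GRCm38.p6) were found for 8 of the 10 genes, and the 250 bases before each start were searched on both strands for CGGAAG, a core of ETS factor motifs (CTTCCG on the opposite strand), and for the CArG box of serum response factor. CGGAAG lay before Dusp6, Spred1 and Spred2, and in 13.6% of 32851 promoters. The CArG box lay before Dusp5 alone among the 8, where it occurred side by side at 82 to 73 and at 72 to 63 bases before the start, and in 1.47% of all promoters. The sequences of Dusp6 (chr10:99262981-99263230, plus strand), Spred2 (chr11:19924192-19924441, plus strand) and Dusp5 (chr19:53528895-53529144, plus strand) are shown because they hold these matches, which are in capitals. A match is a description of the letters and was not tested as a binding site.
Dusp6: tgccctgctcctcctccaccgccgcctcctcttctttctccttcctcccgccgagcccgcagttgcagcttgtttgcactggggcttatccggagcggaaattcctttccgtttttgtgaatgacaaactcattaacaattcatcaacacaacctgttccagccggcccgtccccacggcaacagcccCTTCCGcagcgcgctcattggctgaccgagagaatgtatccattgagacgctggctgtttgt
Spred2: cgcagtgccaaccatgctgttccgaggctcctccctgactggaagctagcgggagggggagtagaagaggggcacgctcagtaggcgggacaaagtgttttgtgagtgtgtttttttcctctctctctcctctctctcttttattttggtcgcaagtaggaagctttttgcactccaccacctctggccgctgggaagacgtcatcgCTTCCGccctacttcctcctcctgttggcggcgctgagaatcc
Dusp5: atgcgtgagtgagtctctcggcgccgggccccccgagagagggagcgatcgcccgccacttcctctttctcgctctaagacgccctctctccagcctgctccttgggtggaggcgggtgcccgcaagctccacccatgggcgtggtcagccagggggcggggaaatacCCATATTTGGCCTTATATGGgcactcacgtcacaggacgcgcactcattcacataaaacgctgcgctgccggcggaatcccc

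Among the deleted receptor genes, Fgfr1 had a mean log2 ratio of mutant over control of -0.33 ± 0.15 (SD, n = 2; limma adjusted p = 0.134), and Fgfr2 had 0.56 ± 0.02 (SD, n = 2; adjusted p = 0.0309). Fgfr2 RNA was thus higher in the RNA labelled mutant. The call was lost with median centring (log2 ratio 0.39, limma adjusted p = 0.137), where 0 of 22070 genes passed. It was also lost with the scanner software's signals, in the authors' value table and with separate channels. The log2 ratios there were 0.63, 0.64 and 0.56, and 10, 170 and 214 of 22070 genes passed. All these values are from the brightest probe of each gene. The other Fgfr1 probes had means of -0.54 and -0.37, and the other Fgfr2 probe had 0.76. The mean over the probes was -0.42 for Fgfr1 (limma adjusted p = 0.0522) and 0.66 for Fgfr2 (limma adjusted p = 0.0160). The sources used here do not name the floxed exons, and a probe that lies outside them checks nothing, so samples are called mutant by their labels alone.

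No feedback inhibitor passed the test for a change in the mutant ureters. A probe was tested where mutant RNA, control RNA or both were well above background on each array, which held for 9 of the 10 genes. Of these, 0 of 9 passed limma's test at an adjusted p under 0.05, where 836 of 22070 genes did (3.79%), 1.76% higher and 2.03% lower in mutant RNA. Spred3 and Dusp5 entered through control RNA alone, and with both genotypes required to be well above background 0 of 7 members passed, against 1100 of 20686 genes (5.32%). At an unadjusted p under 0.05 the count was again 0 of 9, against 4955 of 22070 genes (22.5%). Adjusted p ran from 0.258 for Spry2 to 0.938 for Spred3. The 9 means had a median log2 ratio of -0.04, against -0.02 over all genes tested, and lay from -0.16 to 0.23. In whole tissue, fewer cells of a type and less RNA per cell cannot be told apart, so these ratios describe the ureter and not the mesenchyme alone.

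**Figure D1:**
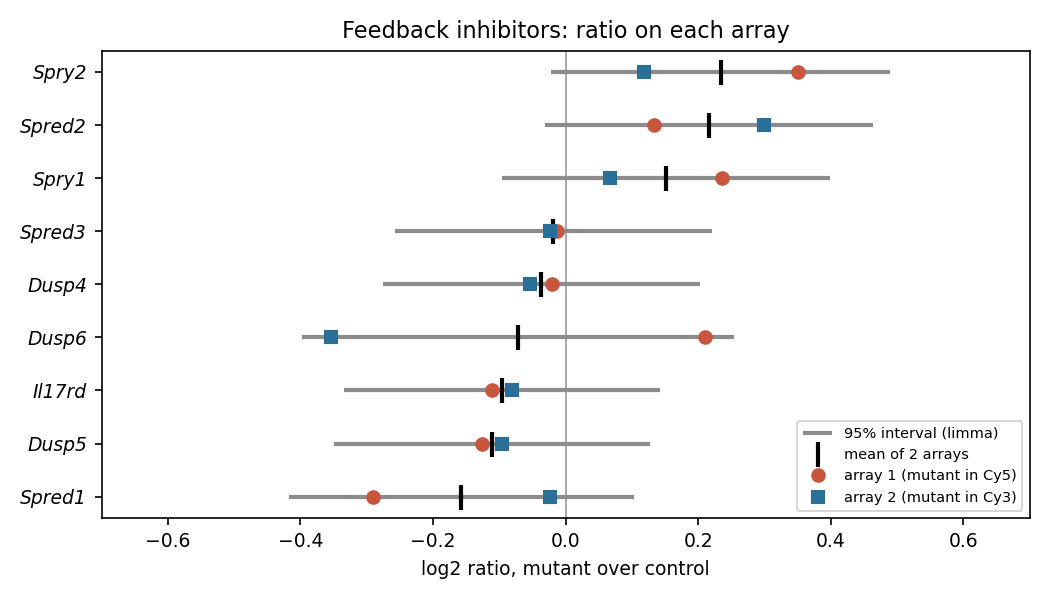
Log2 ratio of mutant over control for the 9 tested feedback inhibitors (x axis; genes on the y axis), with array 1 as circles, array 2 as squares, the mean as a bar and the 95% limma interval as a grey line. Every interval crosses 0, and Dusp6 is the gene whose arrays lie on opposite sides of 0, at 0.21 and -0.35.

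A missed threshold does not show equal levels, so the intervals matter. In this fit the 95% intervals of the 9 genes lay between a 0.749-fold and a 1.40-fold ratio of mutant over control. They do not cover the choice of processing. Dusp5 had a log2 ratio of -0.49 with the scanner software's signals and -0.48 in the authors' value table, below its own interval from -0.35 to 0.13. The offset of 50 used here pulls ratios of dim probes, such as those of Dusp5 and Spred3, towards 0. The smallest log2 ratio that passed the test in any gene of the main fit had a size of 0.47, so no smaller shift was called in that fit. All 9 intervals shared the range from -0.02 to 0.10 on the log2 scale, so no gene in their order, from Spry2 at the top to Spred1 at the bottom, stood clear of the others.

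The Sprouty transcripts are described first. Spry1, on chromosome 3 (probe at chr3:37543403-37543462, mm9), had normalised log2 signals of 12.08 in control RNA and 12.32 in mutant RNA on array 1, and of 12.45 and 12.52 on array 2. The mutant sample was the higher on each array, but the control of array 2 lay above the mutant of array 1. Its log2 ratio was 0.15 ± 0.12 (SD, n = 2; adjusted p = 0.446), with a 95% interval from -0.10 to 0.40.

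Spry2 (chr14:106291845-106291904, mm9) had log2 signals of 8.50 in control and 8.85 in mutant RNA on array 1, and of 8.69 and 8.80 on array 2. Both mutant samples lay above both controls. How many of all genes do so was not counted, so no shift is read from it. The log2 ratio, 0.23 ± 0.16 (SD, n = 2), was the highest of the 9 and did not pass (adjusted p = 0.258), with an interval from -0.02 to 0.49. Spry4, an inhibitor that in many embryonic tissues follows FGF signalling closely, could not be followed. None of its 4 spots was well above background in any of the 4 RNA samples, so no fold is given.

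**Figure D2:**
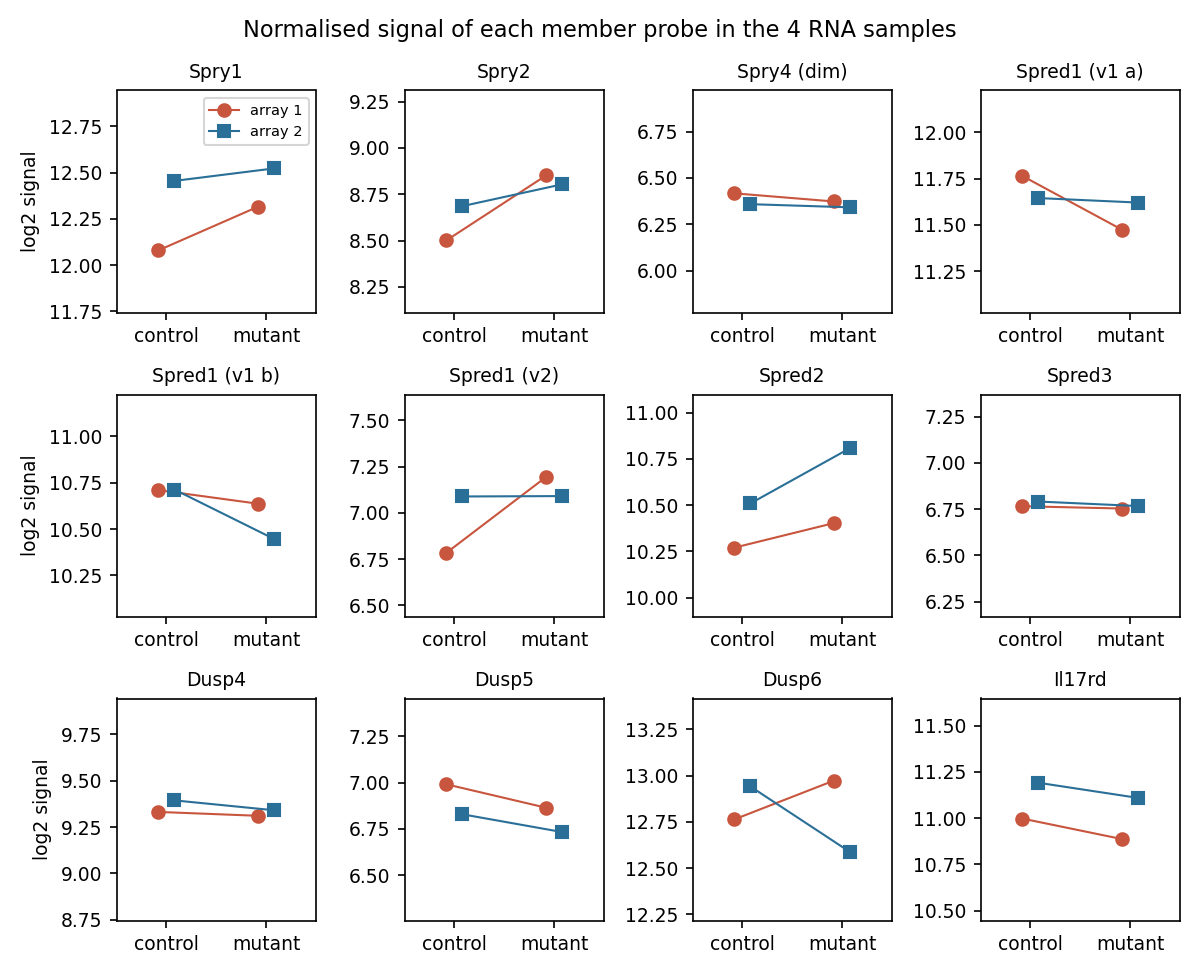
Normalised log2 signal (y axis) of each of the 12 probes in control and mutant RNA (x axis), with array 1 as circles and array 2 as squares and a line joining the RNA pair of an array; each panel spans 1.2 log2 units, and levels of different probes are not comparable. Dusp6 goes from 12.76 in control to 12.97 in mutant RNA on array 1 and from 12.94 to 12.59 on array 2, and no Spry4 spot (panel marked dim) is well above background in any sample.

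Spred2 lay close to Spry2. Its probe (chr11:19922416-19922475, mm9) gave log2 signals of 10.27 in control and 10.40 in mutant RNA on array 1, and of 10.51 and 10.81 on array 2. The mutant sample was the higher on each array, while the control of array 2 exceeded the mutant of array 1. The log2 ratio was 0.22 ± 0.12 (SD, n = 2; adjusted p = 0.280), with an interval from -0.03 to 0.46. Under median centring it was 0.030.

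Spred1 was the only member with several probes, and these did not go the same way. The first 30 of the 60 bases of each are shown because 2 probes are annotated to transcript variant 1 and the third to variant 2. They lie at chr2:117005906-117005965 (variant 1, probe a), chr2:117004952-117005011 (variant 1, probe b) and chr2:116998491-116998550 (variant 2), all in mm9 and listed on the plus strand, and no base is marked.
Spred1 variant 1, probe a: cattaatattttcagtttgtttaaccactt
Spred1 variant 1, probe b: gtgatatgctccagcaaacaggttaaaaat
Spred1 variant 2: caacctcttcattgtttaatgttctggtct

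Probe a, the brightest, stood for the gene. Its log2 signals were 11.76 in control and 11.47 in mutant RNA on array 1, and 11.65 and 11.62 on array 2. Both mutant samples lay below both controls, by little on array 2. Here too the share over all genes was not counted, and no shift is read from it. The log2 ratio was -0.16 ± 0.19 (SD, n = 2; adjusted p = 0.452), with an interval from -0.42 to 0.10.

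Probe b gave a mean log2 ratio near that of probe a, -0.17 ± 0.14 (SD, n = 2), but its lower value was on the other array, with -0.07 on array 1 and -0.27 on array 2. The variant 2 probe had the opposite sign, at 0.21 ± 0.29 (SD, n = 2), with 0.41 on array 1 and 0.00 on array 2. When every probe was fitted on its own, 1471 of 28915 probes passed (5.09%), and 0 of the 3 did so, with limma adjusted p of 0.447 (probe a), 0.390 (probe b) and 0.353 (variant 2), none of them under 0.05 before adjustment. The variant 2 probe was dim, with log2 signals from 6.78 to 7.19, though all its spots were well above background. The difference between variants was not tested. The mean over the 3 probes was -0.041.

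**Figure D3:**
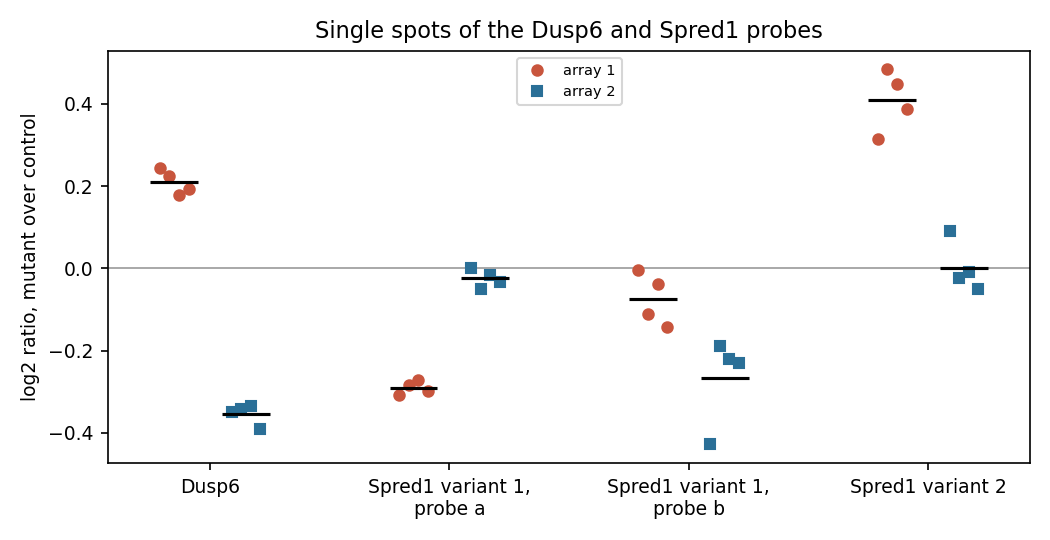
Log2 ratio of mutant over control in single spots (y axis) for the Dusp6 probe and the 3 Spred1 probes (x axis), with array 1 as circles, array 2 as squares and the mean of the spots as a bar. The Dusp6 spots of each array lie close together around 0.21 on array 1 and -0.35 on array 2, and the Spred1 variant 2 spots of array 1 all lie above 0.

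Spred3 (chr7:29944517-29944576, mm9) was near background. Its log2 signals were 6.77 in control and 6.75 in mutant RNA on array 1, and 6.79 and 6.77 on array 2. All 4 samples lay within the same narrow range. In control RNA 4 of 4 kept spots were well above background on array 1 and 2 of 3 on array 2, and in mutant RNA 0 were. With no mutant spot measured well above background, its log2 ratio, -0.02 ± 0.01 (SD, n = 2; adjusted p = 0.938; 95% interval from -0.26 to 0.22), describes dim signals and does not fix a direction.

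Among the phosphatases, Dusp6 was the gene on which the arrays disagreed. The probe (chr10:98729985-98730044, mm9) gave log2 signals of 12.76 in control and 12.97 in mutant RNA on array 1, and of 12.94 in control and 12.59 in mutant RNA on array 2. The mutant samples were thus the highest and the lowest of the 4. Its ratios were 0.21 and -0.35, and the mean was -0.07 ± 0.40 (SD, n = 2; adjusted p = 0.807), with an interval from -0.40 to 0.25. The 4 spots of an array, which share 1 hybridisation, had SDs of 0.030 on array 1 and 0.025 on array 2. The SD between arrays exceeded that of 96.1% of all genes tested. Dusp6 removes phosphate from ERK itself, and its transcript is among the most used readouts of FGF signalling.

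Dusp4 (chr8:35882045-35882104, mm9), a nuclear phosphatase, had log2 signals of 9.33 in control and 9.31 in mutant RNA on array 1, and of 9.39 and 9.34 on array 2. The groups overlapped in this narrow range. Its log2 ratio was -0.04 ± 0.02 (SD, n = 2; adjusted p = 0.869), with an interval from -0.28 to 0.20.

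Dusp5 (chr19:53615682-53615741, mm9), a nuclear phosphatase specific for ERK, was dim. The log2 signals were 6.99 in control and 6.86 in mutant RNA on array 1, and 6.83 and 6.73 on array 2. The mutant sample was the lower on each array, with overlap between arrays. All 4 spots were well above background in each control RNA and 2 of 4 in each mutant RNA, so its ratio rests partly on dim spots. The log2 ratio was -0.11 ± 0.02 (SD, n = 2; adjusted p = 0.568), with an interval from -0.35 to 0.13. It was -0.49 from the scanner software's processed signals (adjusted p = 0.122) and -0.48 in the authors' value table (adjusted p = 0.107), and 0.023 under median centring.

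Il17rd (chr14:27920311-27920370, mm9) had log2 signals of 11.00 in control and 10.89 in mutant RNA on array 1, and of 11.19 and 11.11 on array 2. The mutant sample was the lower on each array, and the mutant of array 2 lay above the control of array 1. Its log2 ratio was -0.10 ± 0.02 (SD, n = 2; adjusted p = 0.627), with an interval from -0.34 to 0.14.

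Of the 9 genes, 3 had ratios above 0 on both arrays (Spry1, Spry2 and Spred2), 5 below 0 on both, and 1, Dusp6, opposite signs. Equal signs on both arrays were found in 66.5% of all genes tested, and no reading is taken from the members' share. The typical SD between arrays was 0.12 among the 9 genes and 0.11 over all genes tested.

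Other genes of the same pathway give the setting. The core of the cascade, from adaptor to kinase, had 1 gene of 20 tested higher and 0 lower, with a median log2 ratio of 0.08. Over all genes tested, 1.76% were higher and 2.03% lower, and no reading is taken from counts in lists this short. The gene that rose was the scaffold Ksr2, by 0.72 ± 0.27 (SD, n = 2; adjusted p = 0.0247), from the brightest of 3 probes. The other probes had means of -0.05 and 0.05, and the mean over all 3, 0.24, did not pass (adjusted p = 0.188). The call was also lost with the scanner software's signals, with median centring and in the authors' value table (adjusted p = 0.0804, 0.123 and 0.0544), where the log2 ratios were 0.92, 0.60 and 0.92. In those settings 10, 0 and 170 of 22070 genes passed. The adaptor Grb2 had 0.33 and the phosphatase Ptpn11, which carries the signal from receptor to RAS, had 0.33 (adjusted p = 0.122 and 0.123). The second Grb2 probe had 0.05.

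The list of other negative regulators had a median of 0.03 and 0 of 10 genes passing limma's test, against 3.79% of all genes tested. At an unadjusted p under 0.05 it had 1 of 10, against 22.5%. That gene was Tesk1, a kinase that binds Sprouty proteins, with 0.46 ± 0.04 (SD, n = 2) at an adjusted p of 0.0507. Tesk1 passed in 5 of 13 alternatives, at 0.0260 with a variance trend. Its ratio is not read as that of an inhibitor of ERK signalling. The RAS GTPase activating protein Rasa1 had 0.26 ± 0.21 (SD, n = 2), with 0.40 on array 1 and 0.11 on array 2. The RAF inhibitor Pebp1 had 0.28 ± 0.34 (SD, n = 2), with 0.039 on array 1 and 0.52 on array 2, and -0.030 under median centring.

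Other MAP kinase phosphatases had 1 gene of 7 lower (2.03% over all genes tested), 0 higher (1.76%) and a median of -0.07. Dusp7, like Dusp6 a cytoplasmic ERK phosphatase, fell by 0.59 ± 0.22 (SD, n = 2; adjusted p = 0.0378) from its brighter probe, while its other probe had 0.16. The mean over both probes, -0.22, did not pass (adjusted p = 0.270), nor did Dusp7 with the scanner software's signals, median centring, the authors' value table or separate channels, where the log2 ratios were -0.60, -0.79, -0.59 and -0.59. In the latter settings 10, 0, 170 and 214 of 22070 genes passed. Dusp10 and Dusp16, which act mainly on stress kinases, had -0.39 and 0.31 (adjusted p = 0.0773 and 0.144).

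Transcripts that follow ERK activity had 2 genes of 13 higher (1.76% over all genes tested), 0 lower (2.03%) and a median of 0.09. Egr1, an immediate early transcription factor, rose by 0.85 ± 0.34 (SD, n = 2; adjusted p = 0.0216). Arc, an activity-induced cytoskeletal gene, rose by 0.75 ± 0.26 (SD, n = 2; adjusted p = 0.0228). The early response gene Ier2 had 0.44 (adjusted p = 0.0736). Ier3, named after its value was seen, went the other way, at -0.36 (limma adjusted p = 0.110). Of the 13 genes, 6 lay above 0 on both arrays, 4 below 0 on both, and 3 had opposite signs. Both calls, Egr1 and Arc, were lost with the scanner software's signals, where the log2 ratios were 0.84 and 0.99, and with median centring, where they were 0.60 and 0.65. In those settings 10 and 0 of 22070 genes passed. In the authors' value table Egr1 had 0.85 without passing (adjusted p = 0.0648). The lists and the feedback inhibitors are described by counts and medians alone, and the difference between them was not tested.

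**Figure D4:**
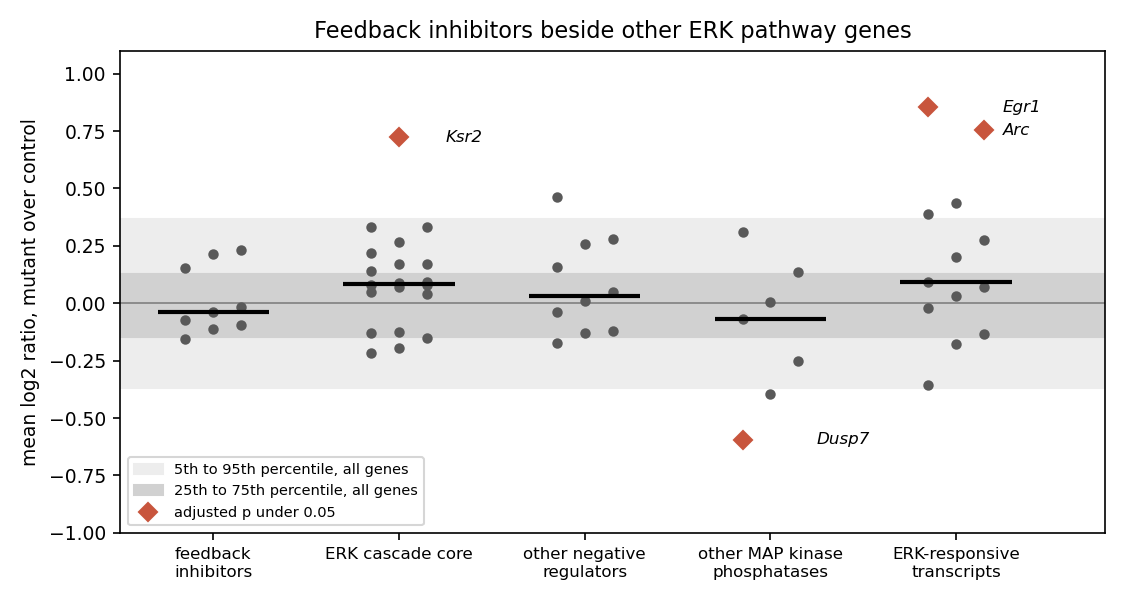
Mean log2 ratio of mutant over control (y axis) of each tested gene, by list (x axis); diamonds passed an adjusted p under 0.05, bars are list medians, and bands mark the percentiles of all genes tested. The 9 feedback inhibitors lie between -0.16 and 0.23, while Ksr2, Egr1 and Arc lie above and Dusp7 below.

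The members were examined under 13 alternatives that keep both arrays. Those that change only the probe filter or the form of the fit, and the fit of single probes, returned the same ratios. A sign kept there was fixed in advance. Averaging over probes moved only Spred1, and keeping outlier spots only Spry2 and Spred3. Over all 13, 112 of 115 values of the members kept their sign and stayed short of the threshold. The other 3 turned sign, all with median centring in place of the intensity-dependent loess. That setting moved the median of all genes tested from -0.02 to -0.14, and put Spry1 at -0.057, Spred3 at 0.15 and Dusp5 at 0.023. It also put Spred1 at -0.35, Dusp4 at -0.19, Dusp6 at -0.28 and Il17rd at -0.29. None of them passed the test, but 0 of 22070 genes did in that setting. With array 1 alone Dusp6 turned to 0.21, and the other 8 genes kept their sign on either array alone. Spred3, near background, was at -0.20 with the scanner software's signals and at -0.25 in the authors' value table. In the settings that changed the ratio, Spry2 and Spred2 stayed above 0, from 0.11 to 0.31 and from 0.030 to 0.24, with the same 2 arrays in each.

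**Figure D5:**
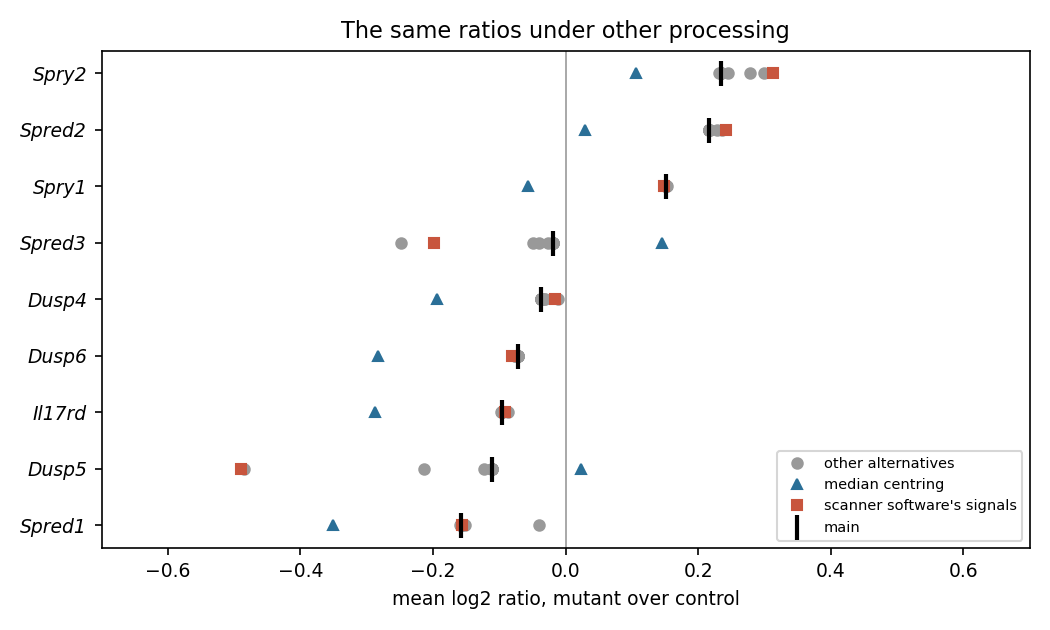
Mean log2 ratio of mutant over control (x axis) of the 9 tested feedback inhibitors (y axis) in the main setting (bars) and in the alternatives, with median centring as triangles, the scanner software's signals as squares and the rest as circles. Median centring moves the bright genes down and the dim genes Spred3 and Dusp5 up.

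Markers of other cells shifted in the same RNA. In the main setting, adipocyte markers fell in 6 of 6 genes tested, endothelial and macrophage markers in 4 of 6 each, and neuronal and Schwann cell markers in 3 of 6, with median log2 ratios of -1.95, -0.56, -0.58 and -0.43. Over all genes tested, 2.03% were lower and 1.76% higher. The marker lists were not counted under other processing. With median centring 0 of 22070 genes passed, and with the scanner software's signals 10 did. The adipocyte median was -1.15 on array 1 and -2.88 on array 2. Urothelial markers rose in 2 of 8, with a median of 0.44 and means from -0.46 to 0.97. Of these 8, 6 lay above 0 on both arrays and 1 below 0 on both. Among smooth muscle and mesenchymal markers 0 of 7 passed, with a median of 0.08 (-0.016 on array 1 and 0.15 on array 2). All of these markers were well above background in at least 1 genotype, so the urothelium and muscle of the labelled tissue were present. The summed log2 signal of the urothelial markers was 17.45 to 17.47 in control and 17.93 to 18.19 in mutant RNA, and that of the muscle and mesenchymal markers 19.18 to 19.19 and 19.15 to 19.25. The adipocyte sum was 15.78 to 16.05 in control and 12.68 to 14.90 in mutant RNA, the endothelial sum 12.31 to 12.45 and 11.88 to 11.92, and the macrophage sum 15.90 to 16.27 and 15.33 to 15.87. The neuronal and Schwann cell sum, 15.35 to 15.74 and 15.78 to 15.93, was higher in mutant RNA although its median gene was lower. Their part in the levels of the feedback inhibitors was not tested.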

How the data were processed

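Intensity values, as mean spot signals with median local backgrounds, were deposited as scanner output; the submitters' processing notes name Agilent Feature Extraction, version 10.7.3.1. Probe coordinates are mm9, per the file headers. The software's processed intensity values, background-subtracted and dye-normalised per the file headers, served as an alternative. In the value table deposited by the authors each probe has a score that behaves as a signed fold change, never between -1 and 1; on the log2 scale it correlated across probes with Cy5 over Cy3 at 0.69 on array 1 and -0.84 on array 2, so its direction is mutant over control. Its medians were 1 on both arrays, and its centring is unknown.

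Mean signals were corrected by normexp (offset 50, which pulls ratios of dim probes towards 0) and loess within arrays in limma 3.58.1 (R 4.3.3), giving weight 0 to control, filler and outlier spots. The 4 spots of a probe were averaged. Probes with over 0.5 of their spots well above background on both arrays in a genotype were kept (28915 of 39429), and the brightest stood for a gene. Names came through RefSeq accessions for 28328 probes, symbols for 3400 and the file for 7701. The dye labels set the direction, mutant over control, and ratios were tested two-sided with lmFit and eBayes (1 residual and 7.45 prior degrees of freedom), adjusted by Benjamini-Hochberg over 22070 genes. Levels came from separate channels after Aquantile normalisation. Named are all members, Fgfr1, Fgfr2, and called genes plus the 3 with the smallest p of each pathway list. Members and lists were chosen with earlier results of these data known.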

Additional observations from a re-analysis of the deposited data

Results flagged for a closer look

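Dusp6 moved in opposite ways on the arrays, with a log2 ratio of mutant over control of 0.21 on the array labelled male and of -0.35 on the array labelled female. The difference was not tested, since each sex label has 1 array. Sex label, dye orientation and replicate are the same split and cannot be told apart.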

How the results depend on the processing

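The count of feedback inhibitors that passed was 0 in the main setting and in all 13 alternatives. With median centring 0 of 22070 genes passed, so the members' count there was fixed in advance. With the scanner software's signals 10 of 22070 passed, so a count of 0 says little there. At an unadjusted limma p under 0.05, 1 of 9 was counted with the scanner software's signals, against 4621 of 22070 genes. It was 1 of 9 against 4691 of 22070 in the authors' value table, and 1 of 10 against 5972 of 30011 with unfiltered probes. With median centring it was 2 of 9 against 5584 of 22070. No reading is taken from these counts. The count of all genes that passed at the adjusted threshold, 836, was 10 with the software's signals, 0 with median centring, 170 with the value table, 214 with separate channels, 1415 with a variance trend and 1471 over single probes. The members' median of -0.04 was -0.082 with the software's signals, -0.076 in the value table, -0.049 without background subtraction and -0.057 with median centring. Over all genes tested the medians in those settings were -0.018, -0.012, -0.018 and -0.14. With median centring the members' median thus lay above that of all genes. Leaving out an array gave members' medians from -0.024 to -0.012. Reversed under median centring were Spry1 (-0.057), Spred3 (0.15), Dusp5 (0.023) and Pebp1 (-0.030). The 1 call among the cascade core became 0 with the software's signals, median centring, the value table and the mean over probes, and 2 over single probes. The 1 call among other phosphatases became 0 in the same 4 settings and with separate channels. The 2 calls among ERK-responsive transcripts became 0, 0 and 1 with the software's signals, median centring and the value table. The 0 calls among other negative regulators became 1, Tesk1, without background subtraction, with both genotypes required above background, with the mean over probes, over single probes and with a variance trend. Causes were not tested. Each ratio is taken within an array, so mutant and control RNA are paired throughout, and the separate channels were paired by an intraspot correlation of 0.39. With 1 array left there is no test, and Dusp6 turns to 0.21 without array 2. Dusp5, Spred3 and Spry4 were dim or not well above background, where signal limits the ratio.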

Other observations

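Dusp1 and Fos also differed between the arrays, and they are named after their values were seen. The stress-induced phosphatase Dusp1 had log2 ratios of 0.54 on array 1 and -0.27 on array 2, and the immediate early gene Fos had 0.55 and -0.0068. Neither passed the test (limma adjusted p = 0.687 and 0.295). The ETS factors Etv4 and Etv5, which follow FGF signalling in many tissues, were named in the same way and had means of -0.18 and -0.023 (limma adjusted p = 0.364 and 0.922).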
